A study of Mus musculus with 2 samples.

Results

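Genes of DNA replication and S phase were compared between cells of the superficial zone (SFZ) of joint cartilage and costal chondrocytes (CC). The set was given by name and holds 37 genes of replication licensing, DNA polymerases, nucleotide supply and the entry into S phase, out of 18193 genes named on the arrays. Of the 37 genes, 36 had at least 1 probe set annotated to that gene alone, 83 probe sets in all, and *Chaf1a* was not analysed here. SFZ cells came from joint cartilage of the femur and tibia and CC from ribs of ICR mice, an outbred stock, at postnatal day 4, with no genetic change or treatment named, and both were grown in DMEM containing 10% FBS. CC were released from ribs by collagenase with no sort described, and neither the number of animals pooled nor the days in culture are given in the sources used here. Each cell type was measured on 1 Affymetrix Mouse Genome 430 2.0 array, so no difference below has a replicate check, and no test was run.

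Chromosomes are copied once per cell cycle. In G1 the origin recognition complex, CDC6 and CDT1 load the ring-shaped MCM helicase onto origins, and in S phase CDC45 and the GINS complex turn it into the moving helicase that polymerases follow. Many genes of this machinery are transcribed together before S phase under E2F transcription factors. In growing cartilage, resting and surface chondrocytes divide rarely and the columnar cells below them divide often. Chondrocytes in serum culture also enter the cell cycle.

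Values are MAS5 signals, linear intensities per probe set, where a probe set is a group of short oligonucleotides for one transcript. The median signal over 45037 probe sets was 28.1 for SFZ cells and 32.0 for CC. The background was set by the 84 probe sets of chemosensory receptor genes, which cartilage should lack, at 28.2 for SFZ cells and 26.2 for CC. A gene is given by its brightest probe set, the one with the highest mean log2 signal over both arrays, unless stated otherwise, and is called higher where its signal was over 100 and over 2 times that of the other cell type. Both samples carried the markers of chondrocytes, with *Col2a1* at 8251 in SFZ cells against 9074 in CC and *Sox9* at 902 and 1150. Signals compare equal amounts of RNA, so a smaller share of dividing cells and less mRNA in each cell cannot be told apart.

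Most of the replication genes had the larger signal in CC. Of the 35 members above background on at least 1 array, 32 had the larger signal in CC and 3, *Mcm2*, *E2f1* and *Rtel1*, in SFZ cells. The CC signal was thus the larger in 91.4% of members, against 67.7% of the 12466 named genes above background, which is the share to set beside every such count below. Of the 31 members with a signal over 100 on at least 1 array, 17 were called higher in CC, or 54.8%, against 11.0% of the 8986 genes with such a signal. In SFZ cells 1 member was called higher, *Rtel1*, against 2.38% of these genes. The shares of 11.0% and 2.38% go beside every count of calls below at these thresholds with the signals as deposited. The CC signal was over 3 times the SFZ signal in 5 members, 2 to 3 times in 13, 1.5 to 2 times in 11, and within 1.5-fold in 5, *Mcm2*, *Rfc1*, *Rpa2*, *Dut* and *E2f1*. The median log2 SFZ/CC ratio was -1.02 over the 35 members and -0.21 over all of those named genes.

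Part of the shift was shared by the whole array. Scaling both arrays to equal medians moved the median log2 ratio of all genes by 0.19, and quantile normalization moved it by 0.23. The median of the members lay 0.81 below that of all genes as deposited and 0.76 below it after quantile normalization. Median scaling moves every log2 ratio by the same amount, so it left the distance of 0.81 unchanged by construction. After median scaling 11 of 31 members with a signal over 100 were called higher in CC, or 35.5%, against 8.54% of genes. *Rtel1* alone was called in SFZ cells, against 3.74%. After quantile normalization 10 of 31 such members were called higher in CC, or 32.3%, against 7.68% of genes, and *Rtel1* again in SFZ cells, against 4.19%. These 10 were *Mcm4*, *Mcm5*, *Gins2*, *Prim1*, *Lig1*, *Rrm1*, *Rrm2*, *Tk1*, *Uhrf1* and *Ccne2*. Of them *Gins2*, *Lig1* and *Ccne2* lost the call with 64 added to both signals as deposited.

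**Figure D1:**
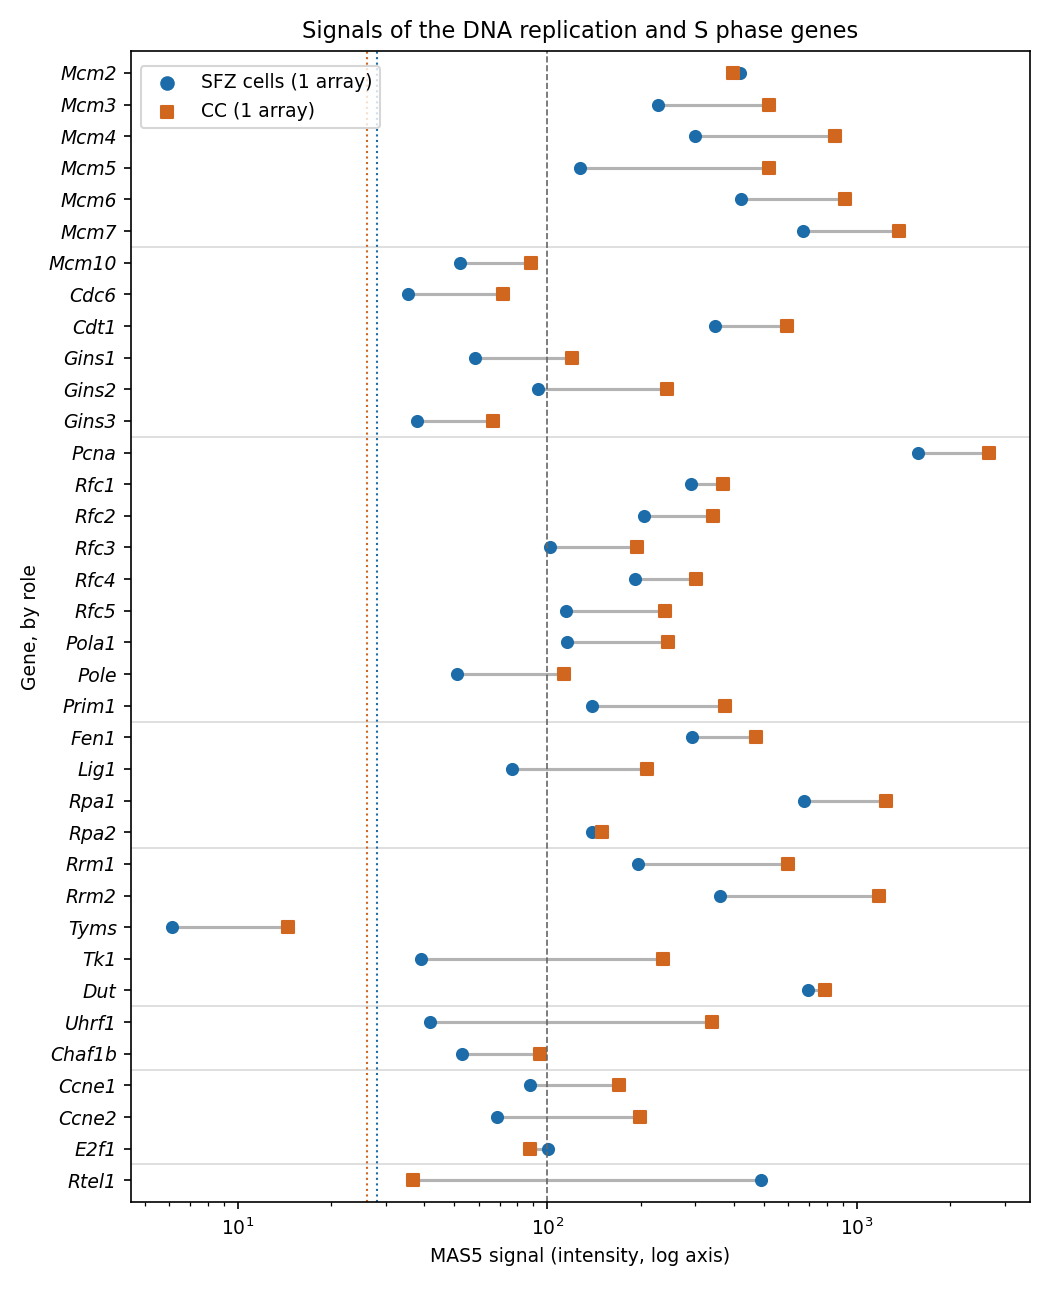
MAS5 signals (log axis) of the 36 measured replication and S phase genes on the brightest probe set of each, with circles for the SFZ array, squares for the CC array and grey lines between roles. The dashed line marks a signal of 100 and the dotted lines the background levels of 28.2 and 26.2; the square lies to the right of the circle in all genes but *Mcm2*, *E2f1* and *Rtel1*, and both signals of *Tyms* are under background.

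Among the 6 subunits of the MCM2-7 ring, 5 were called higher in CC and *Mcm2* was not. *Mcm6* and *Mcm7* lost the call after median scaling, and *Mcm3* as well after quantile normalization. *Mcm5* differed most, with a signal of 127 in SFZ cells against 519 in CC, a 4.09-fold difference. *Mcm4* was at 300.3 and 850.0, 2.83-fold higher in CC. *Mcm3* was at 228 and 521, *Mcm6* at 422 and 911, and *Mcm7* at 669 and 1369, with CC over SFZ ratios of 2.28, 2.16 and 2.05. *Mcm2*, which encodes one of the subunits at the gate where the ring opens, was at 417 and 399, a ratio of CC over SFZ cells of 0.955. Its other probe set gave 417 and 321. Thus both probe sets of *Mcm2* had the larger signal in SFZ cells, while every probe set of *Mcm3* to *Mcm7* above background on both arrays had the larger signal in CC. The ratios over those probe sets ran from 1.37 to 2.49 for *Mcm3*, from 2.83 to 3.22 for *Mcm4*, from 3.83 to 4.09 for *Mcm5*, from 2.05 to 2.16 for *Mcm6* and from 1.31 to 2.32 for *Mcm7*.

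The bases before the starts of *Mcm5* and *Mcm2* are shown because these genes are at opposite ends of the ring subunits in their ratios, and those of *Mcm6* and *Pola1* as further members called higher in CC. *Rrm2* is shown as a member of that kind without the E2F letters. All are RefSeq sequences of build GRCm38.p6, read 5′ to 3′ on the strand of the gene, and lie before the annotated start of the gene, which the array itself does not measure. Capitals mark the letters TTTCCCGC, TTTCGCGC, TTTGCCGC or TTTGGCGC, spellings bound by E2F factors, and the CCAAT box, on either strand; overlapping matches run together.
Mcm5 (chr8:75109309-75109508, + strand): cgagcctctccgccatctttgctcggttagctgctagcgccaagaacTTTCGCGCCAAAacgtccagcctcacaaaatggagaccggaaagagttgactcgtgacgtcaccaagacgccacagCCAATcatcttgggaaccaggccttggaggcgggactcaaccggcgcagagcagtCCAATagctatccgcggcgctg
Mcm2 (chr6:88898781-88898980, - strand): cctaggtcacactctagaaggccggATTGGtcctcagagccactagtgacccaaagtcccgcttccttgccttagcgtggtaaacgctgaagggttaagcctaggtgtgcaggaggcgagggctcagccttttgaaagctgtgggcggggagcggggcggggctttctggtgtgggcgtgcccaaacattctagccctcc
Mcm6 (chr1:128359741-128359820, - strand): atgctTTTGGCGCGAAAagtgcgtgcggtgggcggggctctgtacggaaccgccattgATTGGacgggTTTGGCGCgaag
Pola1 (chrX:93632250-93632329, - strand): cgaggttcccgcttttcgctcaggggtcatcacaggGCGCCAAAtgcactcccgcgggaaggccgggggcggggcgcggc
Rrm2 (chr12:24708166-24708245, + strand): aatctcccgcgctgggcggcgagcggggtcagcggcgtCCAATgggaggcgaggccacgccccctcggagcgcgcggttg

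In *Mcm5* the E2F letters begin 153 and 149 bases before the start and overlap, and in *Mcm6* they begin 110, 106 and 47 bases before it. The stretch of *Mcm2* holds a CCAAT box and none of the 4 E2F spellings. Promoter windows, from 250 bases before to 50 bases after a start, were given for 31 of the 37 genes, with 36 windows in all. The E2F letters were in 11 of these 36 windows, or 30.6%, and in 2.26% of all 32851 windows. A CCAAT box was in 20 of the 36, or 55.6%, and in 37.4% of all windows. The lists compared further below were looked up in the same way. For other replication genes the shares of windows were 28.4% with the E2F letters and 56.7% with a CCAAT box. For mitosis genes they were 3.1% and 78.1%, and for G1 cyclins and CDK inhibitors 13.3% and 33.3%. A link between these letters and the ratios was not tested. The 11 genes with the E2F letters were *Mcm3*, *Mcm5*, *Mcm6*, *Mcm7*, *Cdc6*, *Cdt1*, *Gins3*, *Rfc3*, *Pola1*, *Lig1* and *Uhrf1*. All 11 had the larger signal in CC, with log2 SFZ/CC ratios from -3.02 to -0.77 and a median of -1.08. The 18 measured members above background without these letters ran from -2.59 to 3.73 with a median of -0.76, and the ranges overlap. The upper end is the brightest probe set of *Rtel1*, from which its other probe sets differ, and the next is *E2f1* at 0.19. *Mcm4*, *Gins1*, *Gins2*, *Rfc2*, *Pole* and *Ccne2* had no window and are in neither group, and all of these but *Rfc2* were called higher in CC. A match of letters is a description of the sequence and not of binding, and *Tk1*, *Rrm1* and *Rrm2* were called higher in CC without one in this window.

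Of the licensing and origin firing factors, all 6 had the larger signal in CC, and *Gins1* and *Gins2* were called. *Cdc6*, the ATPase that helps load the MCM ring, had a signal of 35.4 in SFZ cells against 71.6 in CC. *Cdt1*, which brings the ring to the origin, was at 349 and 595, 1.71-fold higher in CC. Neither passed, *Cdc6* because its signals were under 100 and *Cdt1* because its ratio was under 2. *Gins2*, a subunit of the GINS complex of the moving helicase, was at 93.1 and 244, a ratio of 2.62. *Gins1* was at 58.4 and 120, close to the limit at a ratio of 2.05. *Gins3*, at 38.0 and 66.8, and *Mcm10*, a factor that helps the helicase start, at 52.0 and 88.2, stayed under a signal of 100 on both arrays.

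The members *Prim1*, *Pola1* and *Pole*, of the primase and polymerases, were called higher in CC. *Pold1*, the catalytic subunit of polymerase delta and no member, was at 88.3 and 142 and was not. *Prim1*, the catalytic primase subunit that lays down RNA primers, was at 140 in SFZ cells against 375 in CC, a 2.68-fold difference. *Pola1*, the catalytic subunit of polymerase alpha that extends these primers, was at 116 and 245. *Pole*, the catalytic subunit of the leading strand polymerase, was at 51.0 and 113. The ratios of *Pola1* and *Pole*, 2.12 and 2.22, were near the threshold, and neither gene was called after median scaling or quantile normalization.

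The sliding clamp and its loader differed less. *Pcna*, the clamp that holds polymerases on DNA, had a signal of 1572 in SFZ cells against 2664 in CC on its only probe set, 1.70-fold higher in CC. The 5 subunits of the clamp loader all had the larger signal in CC, and *Rfc5* alone was called, at 115 and 240. It was not called after median scaling, after quantile normalization or with 64 added to both signals. *Rfc3* was at 102 and 194, a ratio of 1.90, and passed on its second probe set, at 73.9 and 169. *Rfc2* was at 205 and 342 and *Rfc4* at 191 and 301. *Rfc1*, the large subunit, showed the smallest difference of the loader at 291 and 368, and its 3 probe sets gave ratios from 1.26 to 1.41.

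Among the factors of the lagging strand and of single-stranded DNA, *Lig1* was called. *Lig1*, the ligase that seals Okazaki fragments, was at 76.7 in SFZ cells against 210.4 in CC, 2.74-fold higher in CC. *Fen1*, the nuclease that trims their flaps, was at 294 and 470, a ratio of 1.60. *Rpa1*, the large subunit of the single-strand binding complex, was at 675 and 1242, a ratio of 1.84 that was 1.88 on its other probe set. *Rpa2*, the middle subunit of the same complex, was at 140 and 150, a ratio of 1.07, and its other probe set gave 1.33.

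Genes of nucleotide supply were among those with the largest differences. *Tk1*, the thymidine kinase made in S phase, was at 39.1 in SFZ cells against 235 in CC, 6.02-fold higher in CC on its only probe set. Its SFZ signal was not far above the background level of 28.2, so the size of this ratio is uncertain. With 64 added to both signals its log2 ratio moved from -2.59 to -1.54, beside -1.54 for *Rrm2* and -1.61 for *Mcm5*. *Rrm2*, the S phase subunit of ribonucleotide reductase, was at 362 and 1175, and its 3 probe sets gave ratios from 2.86 to 3.25. *Rrm1*, the large subunit, was at 196 and 598, a ratio of 3.05, and thus the partners differed to a similar degree. *Dut*, which breaks down dUTP, was at 694 and 785, a ratio of 1.13, the smallest difference of the group. The 4 probe sets named for *Tyms*, thymidylate synthase, alone were under background on both arrays, at most 6.14 in SFZ cells against 14.9 in CC, so no ratio is given for it.

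*Uhrf1* had the largest difference toward CC of all members by brightest probe sets. With the median over probe sets its log2 ratio was -2.46 and that of *Tk1* -2.59. With 64 added to both signals the log2 ratio of *Uhrf1* moved from -3.02 to -1.93, as its SFZ signal of 41.7 was not far above background. *Uhrf1* encodes the protein that reads hemimethylated DNA behind the fork and brings in the maintenance methyltransferase. Its brighter probe set had a signal of 41.7 in SFZ cells against 339 in CC, an 8.11-fold difference, and its other probe set had 28.4 and 106, a 3.72-fold difference with the SFZ signal close to the background level of 28.2. *Chaf1b*, a subunit of the histone chaperone that assembles nucleosomes on new DNA, was at 53.0 and 94.9 and stayed under the minimum of 100.

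The genes that switch cells from G1 to S phase were not alike. *Ccne2*, encoding cyclin E2, was at 68.6 in SFZ cells against 200 in CC, 2.91-fold higher in CC. *Ccne1*, encoding cyclin E1, was at 87.8 and 170, and its 2 probe sets gave ratios of 1.93 and 1.97, just under the threshold. *E2f1*, encoding an activating E2F factor, was at 100.5 and 87.8, a ratio of CC over SFZ cells of 0.874, and its second probe set gave 92.2 and 93.8. The signals of *E2f1* were thus nearly equal on both probe sets above background.

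*Rtel1*, a helicase that unwinds telomere loops and other DNA structures at forks, went against the other members on 1 of its 4 probe sets. The brightest had a signal of 490 in SFZ cells against 36.8 in CC, a 13.3-fold difference toward SFZ cells. The other 3 were at 59.1 and 78.1, 32.2 and 46.3, and 28.5 and 29.7, with the larger signal in CC on each. One of these, at 32.2 and 46.3, is annotated to the same sequence record as the brightest. Without the brightest probe set, an alternative chosen after its value was seen, the log2 ratio of *Rtel1* was -0.40, and no member was called higher in SFZ cells. Of the genes near *Rtel1* in the RefSeq annotation, 5 picked by name after its values were seen had SFZ/CC ratios from 1.03 to 1.12. No distance was set for this choice, so they need not be all of its neighbours. Among them were *Stmn3* at 61.6 in SFZ cells against 58.0 in CC, *Arfrp1* at 419 and 391 and *Zgpat* at 175 and 157. What the brightest probe set binds was not tested.

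**Figure D2:**
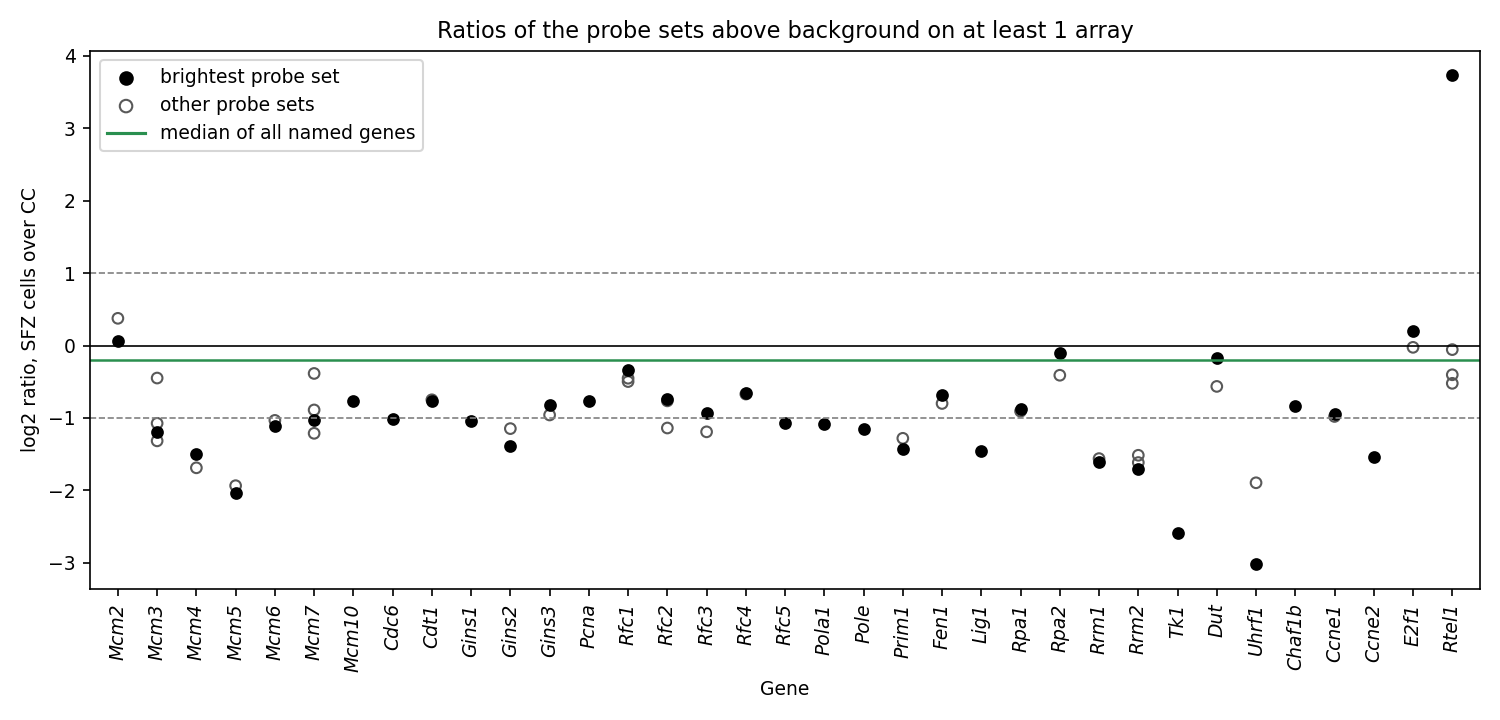
Log2 SFZ/CC ratios, 1 array each, for the 68 member probe sets above background on at least 1 array, by gene (x axis). Filled points are the brightest probe sets, open points the others, dashed lines a ratio of 2 in either direction and the green line the median of all named genes, -0.21; the points of *Rtel1* lie from -0.52 to 3.73, while those of the other genes with several probe sets lie closer together.

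Probe sets of the same gene mostly gave the same direction. After *Rtel1*, the widest spreads were those of *Uhrf1*, with CC over SFZ ratios of 3.72 and 8.11, and of *Mcm3* and *Mcm7* as given above. Of 66 member probe sets above background on both arrays, 62 had the larger signal in CC. The 4 with the larger signal in SFZ cells were the 2 of *Mcm2*, 1 of *E2f1* and 1 of *Rtel1*. Over the 23 members with several such probe sets, the pooled SD of the log2 ratio between probe sets of a gene was 0.68. Over 5033 genes it was 0.31. Without *Rtel1*, left out after its values were seen, it was 0.25 over 22 members, while no gene was left out of the 5033. This is a spread between probes on the same arrays and not between replicates. *Cdc6*, *Pcna*, *Rfc5*, *Pole*, *Lig1*, *Tk1* and *Ccne2* had 1 probe set each, so their ratios have no second measure. *Mcm10*, *Gins1*, *Gins3*, *Pola1* and *Chaf1b* had only 1 probe set above background on both arrays, which leaves them without a second such measure too.

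The difference was of similar size over the range of signals. Of the 8 members with a mean signal (the geometric mean over both arrays) from 30 to 100, the median log2 SFZ/CC ratio was -0.93, against -0.26 for all 3019 genes of that range. It was -1.07 over 14 members from 100 to 300, against -0.22 for 3397 genes, and -0.96 over 12 members from 300 to 1000, against -0.17 for 3201 genes. *Pcna* was the only member above 1000, with a log2 ratio of -0.76 against a median of -0.12 for 1722 genes.

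**Figure D3:**
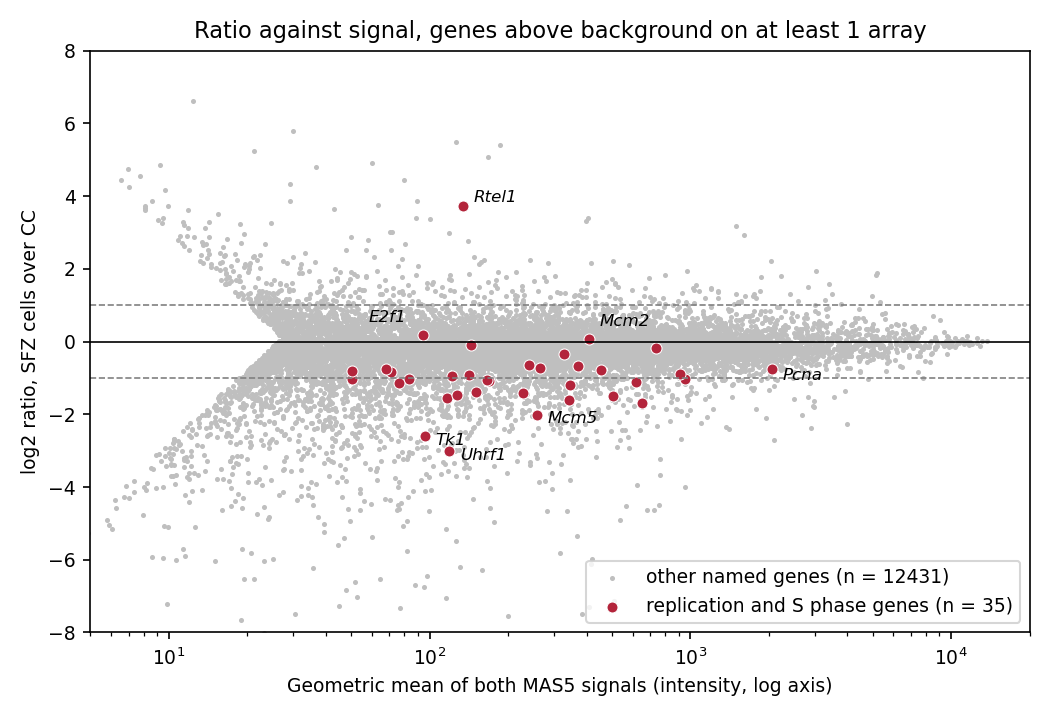
Log2 SFZ/CC ratio (y axis) against the geometric mean of both MAS5 signals (x axis, log scale) for genes above background on at least 1 array, 1 array per cell type, with the 35 members in red and the 12431 other named genes in grey. Of the grey points 18 lie outside the axes, dashed lines mark a ratio of 2, and the members lie mostly between 0 and -2 at all signals, with *Rtel1* above and *Tk1*, *Uhrf1* and *Mcm5* below.

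Other genes of replication showed the same direction with a smaller median. Of 65 such genes above background, from a list of 66, 57 had the larger signal in CC, and the median log2 ratio was -0.56. Of the 52 with a signal over 100, 13 were called higher in CC, or 25%, against 11.0% of all genes with such a signal. None was called higher in SFZ cells, against 2.38%. The most negative ratios were those of *Pclaf*, a PCNA-binding factor, at 226 in SFZ cells against 913 in CC, of *Clspn*, encoding the checkpoint adaptor claspin, at 36.7 and 139, of the histone chaperone gene *Asf1b* at 52.9 and 191, and of *Timeless*, a fork protection gene, at 48.2 and 169. At the other end, *Rpa3*, the small subunit of the single-strand binding complex, was at 811 and 664, *Pole4* at 545 and 472, *Rrm2b*, the p53-induced partner of *Rrm1*, at 229 and 216, and *Orc4* at 600.1 and 570.2. Of the 17 genes of origin recognition and firing 13 had the larger signal in CC, or 76.5%, and 2 of the 10 over 100 were called. All 12 genes of S phase control had the larger signal in CC, and 4 of the 10 over 100 were called. The difference between these groups was not tested. The 8 other genes of nucleotide supply had a median log2 ratio of -0.26, and none was called.

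Genes of mitosis differed more than those of replication. All 34 measured mitosis genes had the larger signal in CC, with a median log2 ratio of -1.38. Of the 31 with a signal over 100, 30 were called higher in CC, or 96.8%, against 11.0% of all genes with such a signal. After quantile normalization 18 were called, where the share of all genes was 7.68%, and an offset of 64 on each signal left 16. *Mki67*, the proliferation marker, was at 146 in SFZ cells against 576 in CC, and *Hmmr* at 56.4 and 234. The kinetochore gene *Nuf2* had a CC signal of 170.1, at least 6.04-fold above that of SFZ cells, and the checkpoint kinase gene *Ttk* was at 104 and at least 3.70-fold higher, as both SFZ signals were under background. The smallest differences among those over 100 were those of *Plk1* at 95.4 and 211, *Incenp* at 153 and 337, *Nusap1* at 142 and 285, and *Prc1* at 151 and 301, the gene that was not called. No test of the difference between the lists is possible with 1 array per cell type.

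The list of G1 cyclins and CDK inhibitors holds 15 genes, among them also the kinase genes *Cdk4* and *Cdk6* and genes of pocket proteins. Of the 15, 14 had a signal over 100, and 2 of these 14 were called higher in CC, or 14.3%, near the 11.0% of all genes. The median log2 ratio of the 15 was -0.55, and 1 gene was called after median scaling, after quantile normalization or with 64 added to both signals. *Ccnd1*, encoding cyclin D1, was at 293 in SFZ cells against 1116 in CC, and *Rb1* at 273 and 570.2. The CDK inhibitor genes *Cdkn1a*, at 1260 and 2384, and *Cdkn2c*, at 304 and 563, did not reach the threshold. *Cdkn1c*, an inhibitor of growth plate chondrocytes, was at 6253 and 6048, *Cdkn1b* at 682 and 687, *Ccnd2* at 3653 and 4517, and *Rbl2* at 156 and 199. The inhibitor genes named here were thus either close to equal or had the larger signal in CC without a call.

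**Figure D4:**
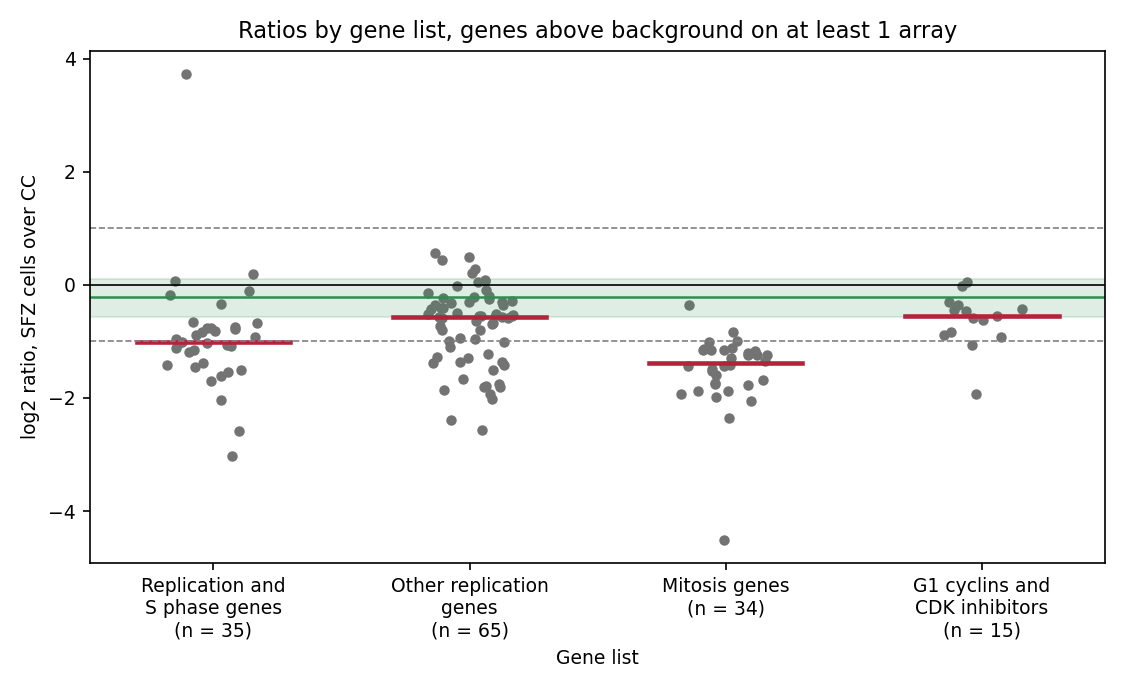
Log2 SFZ/CC ratios, 1 array each, for genes above background on at least 1 array; each point is a gene and each red bar the median of its list. The green line and band are the median and the middle 50% of all named genes, dashed lines mark a ratio of 2, and the bars stand at -1.02, -0.56, -1.38 and -0.55; where an SFZ signal was under background, as for *Nuf2* at -4.51, the plotted ratio is not exact.

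Markers of other cell types also differed between the arrays. Of 12 skeletal muscle markers 10 were called higher in CC, with summed signals of 256 in SFZ cells against 29419 in CC, led by *Actc1* at 28.7 and 8228 and *Acta1* at 32.4 and 5136. *Myod1*, a factor of myoblasts, was at 13.7 and 457 and *Myog*, a factor of their differentiation, at 14.7 and 2721, with both SFZ signals under background. *Myf5* and *Pax7* were under background on both arrays. All 5 measured adipocyte markers were called higher in CC, with summed signals of 1032 and 11391, *Lpl* at 942 and 4009 and *Fabp4* at 42.7 and 6039. Of 8 fibroblast markers 5 were called higher in CC, with summed signals of 14088 and 24029, whereas the brightest, *Col3a1* at 6421 and 8516 and *Dcn* at 5649 and 5289, were not. Of 8 macrophage markers 5 were called higher in CC, with summed signals of 502 and 2252, *Lyz2* at 232 and 1432 and *Cd14* at 55.1 and 228. Of 6 endothelial markers none was called, with summed signals of 63.5 and 168, and *Tek* and *Tie1* were under background on both arrays, while *Emcn* was at 22.5 and 43.4 and *Cdh5* at 13.5 and 46.8. Of 4 measured erythroid markers 3 were under background on both arrays, the brightest being *Epor* at 46.5 and 23.5 and *Klf1* at 19.0 and 18.9. The 8 chondrocyte markers had summed signals of 68053 in SFZ cells against 53896 in CC, *Col9a1* at 11711 and 11816 and *Col11a1* at 12088 and 10872, and *Matn1* was called higher in SFZ cells. The part of muscle, fat, fibroblast and macrophage cells in the signals of the replication genes was not tested. *Actb*, as a reference, was at 7578 in SFZ cells against 9338 in CC.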

How the data were processed

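The authors deposited MAS5 signals, linear intensities per probe set, from 1 Affymetrix Mouse Genome 430 2.0 array of SFZ cells and 1 of CC. The submitters' processing notes name MAS5 without a version, and neither a target for scaling nor present or absent calls are stated in the sources used here. Signals were used as deposited. The 64 control probe sets were left out. Gene names came from GEO's annotation of the platform, where 34945 had 1 gene symbol, 932 several and 9160 none, and the last 2 kinds named no gene. Symbols of all 36 measured members matched RefSeq by gene identifier. The background was the 95th percentile of the odorant, taste and vomeronasal receptor signals, and the thresholds follow the study's array screen.

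The members, gene lists and thresholds were chosen with earlier results of these data known. The rule for named genes took every member, the 4 lowest and 4 highest ratios of each comparison list among genes over 100, the 2 brightest markers of each cell type, and *Actb*; other names were chosen after their values were seen. The number of arrays limits the precision, and no p-value was computed. The alternatives were scaling to equal medians, quantile normalization, a floor at background, an offset of 64, ratios over 1.5 or 3, a minimum of 200, and other choices of probe sets. Python 3.11.15, numpy 2.4.6, pandas 2.3.3 and matplotlib 3.10.9 were used.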

Additional observations from a re-analysis of the deposited data

Results flagged for a closer look

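A probe set annotated to *Tyms* and *Tyms-ps* together entered no comparison, because it names more than 1 gene. Its signal was above background on both arrays, at 157 in SFZ cells and 395 in CC, 2.52-fold higher in CC, and which transcript it measured was not tested.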

How the results depend on the processing

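With 1 array per cell type no replicate could be left out. No paired analysis was possible because each cell type has 1 array. The median log2 SFZ/CC ratios kept their sign under every alternative run, and the number of members called higher in CC, 17, ranged from 5 to 25. Median scaling gave 11 members higher in CC and a median of -0.83, and medians of -0.37 for other replication genes, -1.19 for mitosis genes and -0.36 for G1 genes, of which 1 was called. Quantile normalization gave 10 members and a median of -0.73, medians of -0.33, -1.12 and -0.31 for these lists, 18 mitosis genes and 1 G1 gene called. With 64 added to both signals 9 members, 16 mitosis genes and 1 G1 gene were called, with medians of -0.67 for members and -0.99 for mitosis genes. At a ratio over 1.5, 25 members, 24 other replication genes and 7 G1 genes were called, and at a ratio over 3, 5 members, 6 other replication genes, 12 mitosis genes and 1 G1 gene. A minimum of 200 left 7 other replication genes. With the median over probe sets 8 other replication genes, 1 G1 gene and no member (0) in SFZ cells were called, and *Rtel1* turned to -0.23. Members without a call changed sign as well. With this median *Chaf1b* moved from -0.84 to 1.41, *Mcm10* from -0.76 to 0.9962 and *E2f1* from 0.19 to -0.025. The other probe sets of *Chaf1b* and *Mcm10* were under background on both arrays. *Dut* moved from -0.18 to 0.0087 after median scaling and 0.0259 after quantile normalization. *Rpa2* moved from -0.0985 to 0.0893 and 0.1928. Without the brightest *Rtel1* probe set, an alternative chosen after seeing the data, 0 members were higher in SFZ cells and *Rtel1* was at -0.40. Every other count stayed within 1.5 times its value. The share of all genes called was computed at a ratio over 2 only, as deposited, after median scaling and after quantile normalization. Counts under the other alternatives have no such share beside them, so they cannot be read against the whole array. Stricter or looser thresholds move a count by their own construction; under the scalings and the offset of 64 the cause was not tested.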
